A study of Homo sapiens with 3 samples.

Results

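The genes described are 6 transcription factors of adrenergic neuroblastoma cells (ISL1, MEIS2, PHOX2A, HAND2, GATA3 and TBX2) and 2 enzymes of noradrenaline synthesis (DBH and TH). They were taken by gene symbol, with earlier results of these data known. All 8 were measured, by 10 of the 53617 probe sets of the array, among 14884 genes with a symbol. ISL1 and MEIS2 each had a pair of probe sets. The cells were BE(2)-C, an established human neuroblastoma cell line with amplified MYCN, itself a clonal subline, so all groups share 1 genetic background. They were grown in medium with fetal calf serum and were transfected for 40 hours with a control siRNA, with WDR5 siRNA-1 or with WDR5 siRNA-2. WDR5 presents the histone H3 tail to the enzymes that methylate its lysine 4. Each of the 3 groups was 1 Affymetrix HuGene-2_0-st array, so no value has a replicate error and no test was possible. Each difference below sets 1 array against another.

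Neuroblastoma arises from the sympathoadrenal branch of the neural crest. In its adrenergic state a set of transcription factors that includes PHOX2A, HAND2, GATA3, ISL1 and TBX2 maintains its own expression and that of the noradrenergic genes, and the mesenchymal state shows lower expression of the set. Noradrenaline is made from tyrosine in 3 steps: tyrosine hydroxylase (TH) makes DOPA, DOPA decarboxylase (DDC) makes dopamine, and dopamine beta-hydroxylase (DBH) makes noradrenaline inside dense-core granules.

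Levels are the deposited values, read as log2, so that a difference of 1 is a factor of 2. Since probe sets differ in how strongly they bind, levels are compared between arrays for 1 gene and not between genes. A gene was kept when its mean level was at or above the median of named genes, 6.78, and all 8 genes were among the 7442 kept. The 23 background rows of the array, which match no human gene, ranged from 1.75 to 9.26, and 19 of them held the same value on all 3 arrays. HAND2, GATA3, ISL1 and DBH (4 of the 8) stood above 9.26 on all 3 arrays, and PHOX2A and MEIS2 on some of them. TBX2 and TH stood below it on every array, so a level of those genes alone does not tell that they were expressed. WDR5, the targeted gene, read 9.46 on the control array and 7.90 on both other arrays, which is -1.56 on the log2 scale. Both siRNA values lie within the background range and are exactly tied, so the size of the WDR5 difference is uncertain. The 9 rows of the hybridisation controls, which are added to every array alike, were higher on the siRNA-1 array than on either other array in 9 of 9 rows. Their median difference was 0.16 against control and 0.16 against siRNA-2, and their part in the results below was not tested.

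None of the 8 genes (0) differed from control by 1.5-fold or more on the same side with siRNA-1 and siRNA-2, against 1.46% of all kept genes. The 1 gene past that limit with either siRNA was DBH, which was 1.75-fold lower with siRNA-1 (6.84% of kept genes were past the limit with siRNA-1, and 6.19% with siRNA-2). By any amount, 3 of the 8 genes (MEIS2, and also HAND2 and GATA3, whose sign with siRNA-1 turned under centring) were lower with both siRNAs and 1 (ISL1) was higher with both, beside 22.3% and 18% of kept genes. DBH and PHOX2A lay on opposite sides of control with the siRNAs, as did 25.2% of kept genes, TH held the same value on all 3 arrays, as did 14.9% of kept genes, and TBX2 was tied with control on the siRNA-1 array only. The median difference of the 8 genes was -0.02 with siRNA-1 and -0.03 with siRNA-2, and that of all kept genes was 0 with each. Shares of this size over all genes are the background for these counts, and none of the counts sets the group of 8 apart. In RNA from a whole culture, fewer cells expressing a gene and less RNA per cell cannot be told apart.

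**Figure D1:**
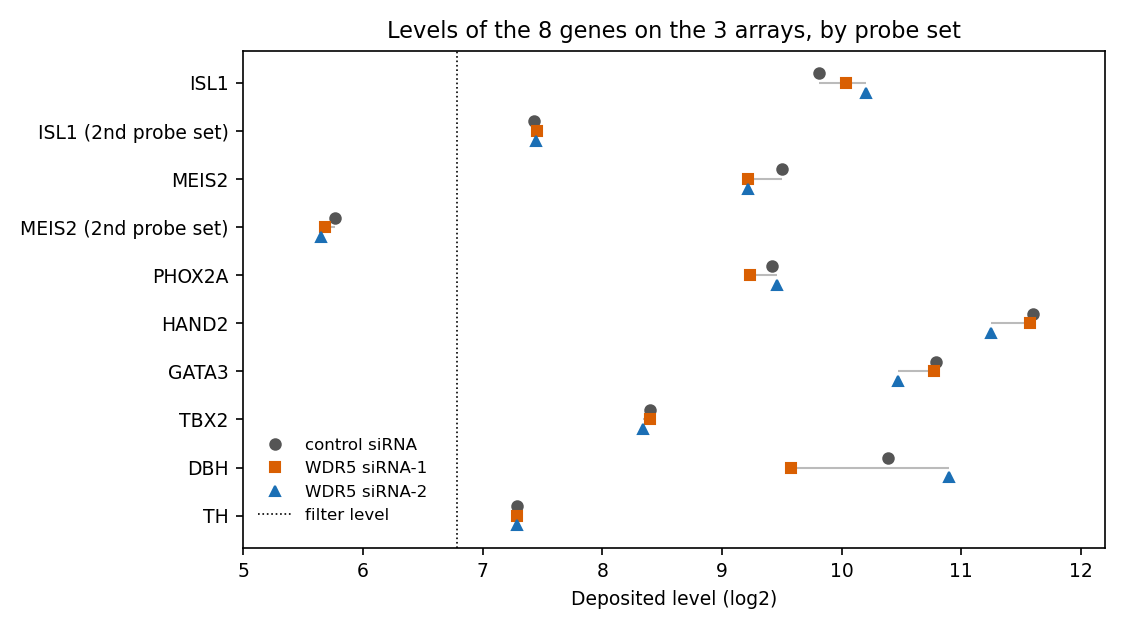
Deposited log2 level (horizontal axis) of each of the 10 probe sets of the 8 genes (rows) on the control siRNA (circle), WDR5 siRNA-1 (square) and WDR5 siRNA-2 (triangle) arrays, with a grey line over the range and a dotted line at the filter level of 6.78. DBH has the widest range, from 9.58 with siRNA-1 to 10.90 with siRNA-2, and the 3 symbols of TH lie at 7.29.

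ISL1, a LIM homeodomain factor of sympathetic and motor neurons, was the 1 gene higher with both siRNAs. Its brighter probe set read 9.81 with the control siRNA, 10.04 with siRNA-1 and 10.21 with siRNA-2. The control array was thus the lowest and the siRNA-2 array the highest, 1.17-fold and 1.31-fold above control. Among kept genes, 13.2% were as high or higher against control with siRNA-1, and 4.68% with siRNA-2. The other ISL1 probe set hardly differed between the arrays, at 7.43, 7.45 and 7.45, or 1.02-fold above control with each siRNA. The mean of the ISL1 probe sets gave log2 differences of 0.13 and 0.21, so the size of the ISL1 difference depends on the probe set.

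MEIS2, a TALE homeodomain factor that binds DNA beside other homeodomain proteins, was lower with both siRNAs by nearly the same amount. Its brighter probe set read 9.51 with the control siRNA and 9.22 and 9.21 with siRNA-1 and siRNA-2. The WDR5 siRNA arrays differed from each other by 0.01, and each stood 1.22-fold below control. Both siRNA levels lie below the highest background row, 9.26, which leaves the size of this difference uncertain. Its other probe set, below the filter level, read 5.77, 5.68 and 5.65 and lay on the same side of control, by -0.09 and -0.12. Of the 8 genes MEIS2 had the largest difference shared by both siRNAs in the deposited values (with arrays centred on the median it was ISL1, with 0.27 against 0.24), yet 13.6% of kept genes were as low or lower with siRNA-1 and 13% with siRNA-2.

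PHOX2A, a paired-type homeodomain factor that activates the genes of noradrenaline synthesis, read 9.42 with the control siRNA, 9.23 with siRNA-1 and 9.46 with siRNA-2. The control and siRNA-2 arrays lay close together, 0.04 apart, and the siRNA-1 array was the lowest, 1.14-fold below control. At least as far from control with siRNA-1 were 36.4% of kept genes. The siRNA-1 level of PHOX2A lies just below the highest background row, 9.26.

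HAND2, a basic helix-loop-helix factor of sympathetic neurons, and GATA3, a zinc finger factor needed for their survival, had nearly the same pattern. HAND2 read 11.60 with the control siRNA, 11.58 with siRNA-1 and 11.25 with siRNA-2. GATA3 read 10.79, 10.78 and 10.47 on the same arrays. In both genes the control and siRNA-1 arrays lay within 0.03 of each other and the siRNA-2 array was the lowest. How many other kept genes had this pattern was not counted. The log2 difference of siRNA-2 from control was -0.35 for HAND2 and -0.32 for GATA3. With siRNA-2, 9.78% of kept genes were as low as HAND2 or lower, and 11.3% as low as GATA3 or lower. The small differences with siRNA-1 (-0.02 for each) became 0.02 for HAND2 and 0.03 for GATA3 under centring on the median. That median was taken over the probe sets with a gene symbol on each array. No direction is read from these differences.

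The 250 bases before the RefSeq start sites of HAND2 and GATA3 are printed because these genes shared a pattern across the arrays. They come from the RefSeq table of the GRCh38.p14 assembly, 5′ to 3′ on the strand of the gene: chr4:173530230-173530479 on the minus strand for HAND2 and chr10:8045083-8045332 on the plus strand for GATA3. Capitals mark each ATTA or TAAT, the core that homeodomain proteins such as PHOX2A and ISL1 recognise.
HAND2: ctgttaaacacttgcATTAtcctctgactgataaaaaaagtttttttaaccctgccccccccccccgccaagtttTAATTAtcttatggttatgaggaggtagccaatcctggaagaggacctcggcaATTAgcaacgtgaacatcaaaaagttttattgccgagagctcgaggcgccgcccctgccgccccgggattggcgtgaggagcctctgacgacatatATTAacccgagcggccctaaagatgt
GATA3: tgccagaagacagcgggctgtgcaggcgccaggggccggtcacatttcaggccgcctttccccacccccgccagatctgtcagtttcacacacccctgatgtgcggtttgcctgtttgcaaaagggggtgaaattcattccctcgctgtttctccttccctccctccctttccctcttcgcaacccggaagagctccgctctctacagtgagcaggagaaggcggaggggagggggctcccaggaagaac

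The HAND2 window held 5 matches to ATTA on either strand, a pair of them overlapping, and the GATA3 window held 0. Among 35116 promoters of the same length, 47.4% held at least 1. The letters AGATAA, a motif of GATA factors, matched once in HAND2, where the match overlapped an ATTA, and 0 times in GATA3 (9.17% of promoters held it). The E-box letters CANNTG, bound by HAND2 and its relatives, matched once in HAND2 and 0 times in GATA3 (61.8% of promoters). TGACAG, a motif of MEIS factors, matched once in GATA3 and 0 times in HAND2 (13% of promoters). GGTGTGA, part of the site of T-box factors, matched in none of the 6 genes found in the promoter table (ISL1, MEIS2, PHOX2A, HAND2, GATA3 and DBH), beside 2.76% of promoters. A match describes letters in a window and does not show that a factor bound there.

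TBX2, a T-box repressor that is itself part of the adrenergic factor set, read 8.40 with the control siRNA, 8.40 with siRNA-1 and 8.34 with siRNA-2. The control and siRNA-1 values were exactly equal. The siRNA-2 value was 0.06 lower, within what 58.2% of kept genes reached or passed against control, and quantile normalization brought the difference to 0.0027.

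**Figure D2:**
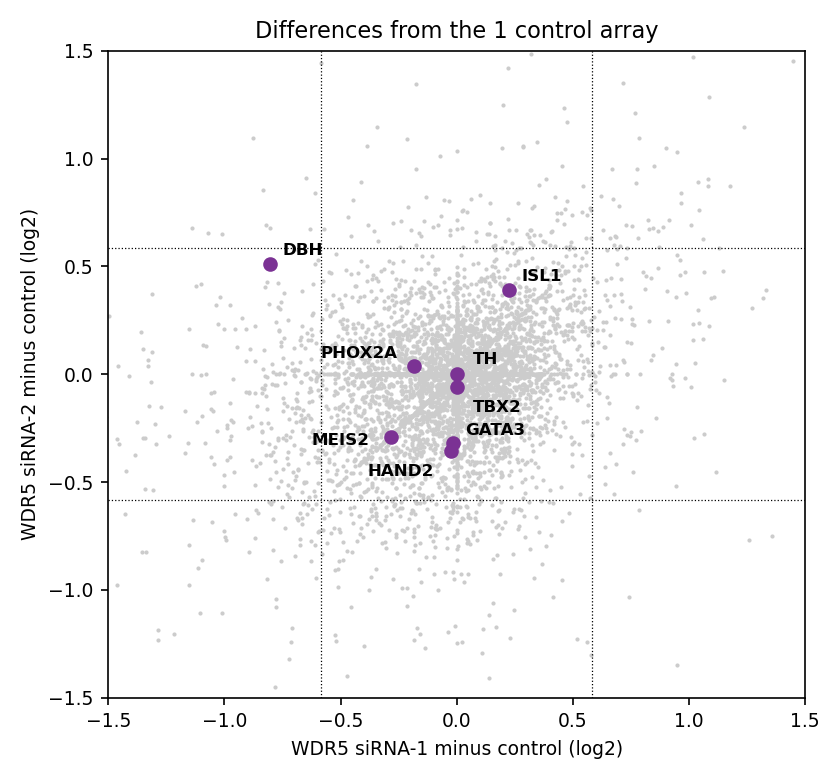
Log2 difference from control with WDR5 siRNA-1 (horizontal axis) and with WDR5 siRNA-2 (vertical axis) for the 8 genes (labelled) and all other kept genes (grey), with dotted lines at 1.5-fold. Both axes share the 1 control array. ISL1 lies to the upper right at 0.23 and 0.39, MEIS2 to the lower left at -0.28 and -0.29, and DBH to the upper left at -0.81 and 0.51.

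DBH, the enzyme that turns dopamine into noradrenaline, had the widest spread of the 8 genes. It read 10.39 with the control siRNA, 9.58 with siRNA-1 and 10.90 with siRNA-2. The siRNA-1 array was thus lowest and the siRNA-2 array highest, with the control between them. Relative to control DBH stood at 57.2% on the siRNA-1 array and at 143% on the siRNA-2 array. Only 2.02% of kept genes were as low or lower against control with siRNA-1, and 2.7% as high or higher with siRNA-2. Between the siRNAs DBH was 2.49-fold lower with siRNA-1, a log2 difference of -1.32 that 38 of the 7442 kept genes (0.511%) reached or passed on the low side. It was the 1 gene of the 8 past 1.5-fold between the siRNAs, beside 8.86% of kept genes. Across the normalization and centring settings tried, this difference ranged from -1.33 to -1.29.

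The 250 bases before the RefSeq start of DBH are printed because it differed most between the arrays and PHOX2A is known to act on its promoter. They lie at chr9:133636113-133636362 of GRCh38.p14 on the plus strand, and capitals again mark ATTA on either strand.
DBH: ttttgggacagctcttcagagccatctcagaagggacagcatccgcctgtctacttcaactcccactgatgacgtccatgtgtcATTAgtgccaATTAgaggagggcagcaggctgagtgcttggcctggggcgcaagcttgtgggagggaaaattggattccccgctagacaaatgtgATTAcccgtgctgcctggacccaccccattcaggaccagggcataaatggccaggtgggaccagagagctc
This window held 3 matches to ATTA, which start at -166, -156 and -71 from the start site, and 3 to CANNTG. It held 0 to AGATAA, to TGACAG and to TGACGTCA, the full cAMP response element (1.65% of promoters). Only exact matches were counted, and the window does hold TGACGTCC, which differs from that element in the last letter. PHOX2A, whose own window held 0 matches to ATTA, was also lowest with siRNA-1 and highest with siRNA-2. Its span between the siRNAs, -0.22, was far narrower than that of DBH.

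TH, the first and rate-limiting enzyme of the pathway, read 7.29 on each of the 3 arrays. The values were identical to the last deposited digit. A tie of this kind was common in the table, with 37.1% of all probe sets, so it sets no limit on how far TH could have differed. The tie was broken by the settings that rescale whole arrays, where TH lay between 0.021 and 0.061 from control.

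The genes around TH and DBH in the pathway came from lists of related genes. Of 14 other genes of catecholamine and cofactor synthesis, 11 were measured and 6 kept. None (0 of 6) reached 1.5-fold on the same side of control with the pair of siRNAs, and their median difference was -0.09 with siRNA-1 and 0.01 with siRNA-2. DDC, the enzyme between TH and DBH, read 10.77 with the control siRNA and 10.79 with each WDR5 siRNA. GCH1, GTP cyclohydrolase, the first enzyme of the tetrahydrobiopterin cofactor that TH needs, read 8.71 with the control siRNA, 9.64 with siRNA-1 and 8.66 with siRNA-2. GCH1 was thus high on the siRNA-1 array alone, 1.91-fold above control, and 0.726% of kept genes were as high or higher. Its control and siRNA-2 levels do not exceed the highest background row, which leaves the size of this fold uncertain. QDPR, which regenerates that cofactor, stood at 9.47, 9.27 and 9.19, lower with both siRNAs by -0.21 and -0.29. PTS, of the same cofactor pathway, had differences of 0.16 and 0, and PCBD1, which recycles the cofactor, of -0.22 and 0.03. PTS and PCBD1 lay below the highest background row on all 3 arrays, and QDPR with siRNA-2. The size of these differences is uncertain. PNMT, which turns noradrenaline into adrenaline, was below the filter level and held the same value, 5.88, on all 3 arrays.

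CYB561, the granule cytochrome that returns electrons to ascorbate for DBH, had the same order of arrays as DBH. It read 9.90 with the control siRNA, 9.54 with siRNA-1 and 10.56 with siRNA-2. The siRNA-1 array was the lowest and the siRNA-2 array the highest. The difference was -0.36 with siRNA-1 and 0.67 with siRNA-2, and 2.03-fold between the siRNAs. Of 13 genes of catecholamine storage, transport and breakdown 3 were measured and 1 kept: ALDH2, an aldehyde dehydrogenase, read 10.62 with the control siRNA, 10.20 with siRNA-1 and 10.65 with siRNA-2, lowest on the same array as DBH.

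Of the 7 kept genes of dense-core granule proteins, where DBH resides, the siRNA-1 array was below the siRNA-2 array in 5, above it in 1 and tied in 1. Over all kept genes it was below in 35.5% and above in 43.1%. The median difference of the 7 genes was 0 with siRNA-1, 0.23 with siRNA-2 and -0.23 between them. Without the filter on low levels, 13 genes had medians of 0.01 with siRNA-2 and 0 between the siRNAs. CHGA, chromogranin A, a granule core protein, read 10.87 with the control siRNA, 10.40 with siRNA-1 and 11.60 with siRNA-2. Like DBH it was lowest with siRNA-1 and highest with siRNA-2, 2.30-fold apart. CHGB, its relative chromogranin B, read 9.99, 9.85 and 10.22 and had the same order over a narrower range. NPY, a neuropeptide stored with noradrenaline, was above control with both, by 0.19 and 0.42. So was VAMP2, a vesicle fusion protein, by 0.22 and 0.30. VAMP2 lay below the highest background row, 9.26, on all 3 arrays, so the size of its difference is uncertain. SCG2, a granin, held the same value, 12.16, on all 3 arrays, and SCG3, another granin, differed by 0.02 and 0.01.

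**Figure D3:**
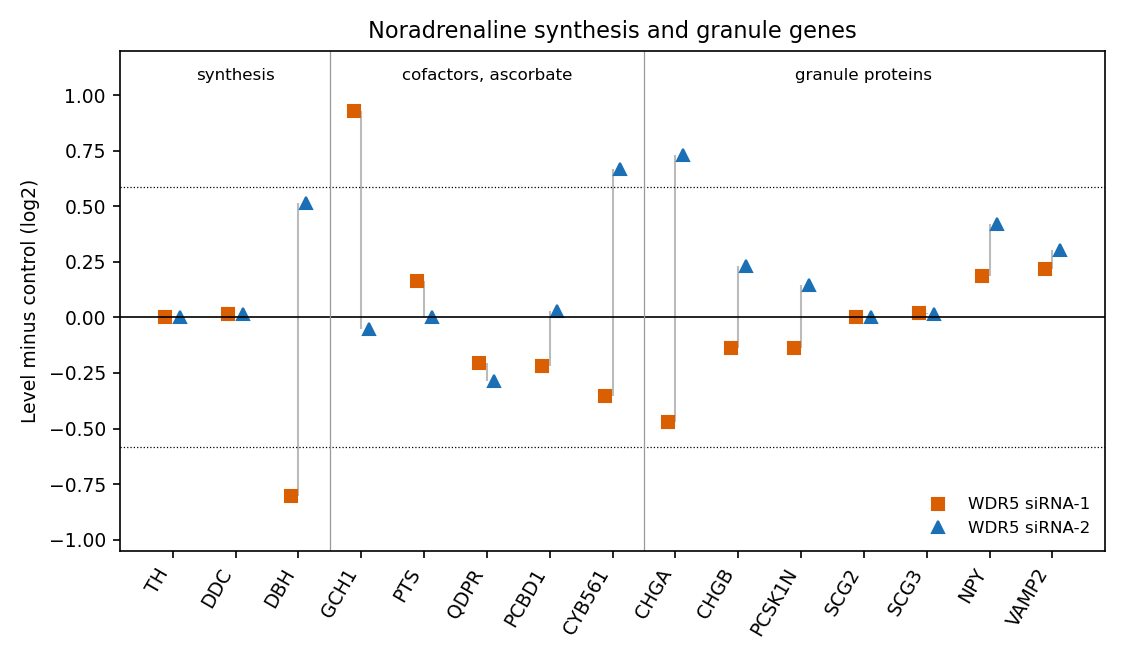
Log2 difference from control (vertical axis) with WDR5 siRNA-1 (square) and WDR5 siRNA-2 (triangle) for TH, DDC and DBH, for kept genes of cofactors and ascorbate, and for kept dense-core granule genes, with dotted lines at 1.5-fold. DBH, CYB561 and CHGA lie below control with siRNA-1 and above it with siRNA-2, while GCH1 lies above control with siRNA-1 alone at 0.93.

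Close relatives of the factors were set beside them, of which 5 were measured and 4 kept. HAND1 read 12.80 with the control siRNA, 12.75 with siRNA-1 and 12.96 with siRNA-2. GATA2 read 10.86, 10.77 and 11.14, and TBX3 read 10.45, 10.31 and 10.61. These 3 relatives were lowest with siRNA-1 and highest with siRNA-2, whereas HAND2 and GATA3 were lowest with siRNA-2. TBX2 was also lowest with siRNA-2 in the deposited values, by 0.06, but not after quantile normalization. MEIS1 read 7.52, 7.77 and 7.52, high on the siRNA-1 array alone, where MEIS2 was below control. These MEIS1 levels lie below the highest background row, 9.26, so the size of the difference is uncertain. ISL2 was below the filter level, with differences of -0.12 and 0.04. Opposite sides of control, in either direction, were common over all kept genes (25.2%). The share of kept genes lowest with siRNA-1 and highest with siRNA-2 was not counted. The differences of these relatives from control ran from -0.13 to 0.28.

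**Figure D4:**
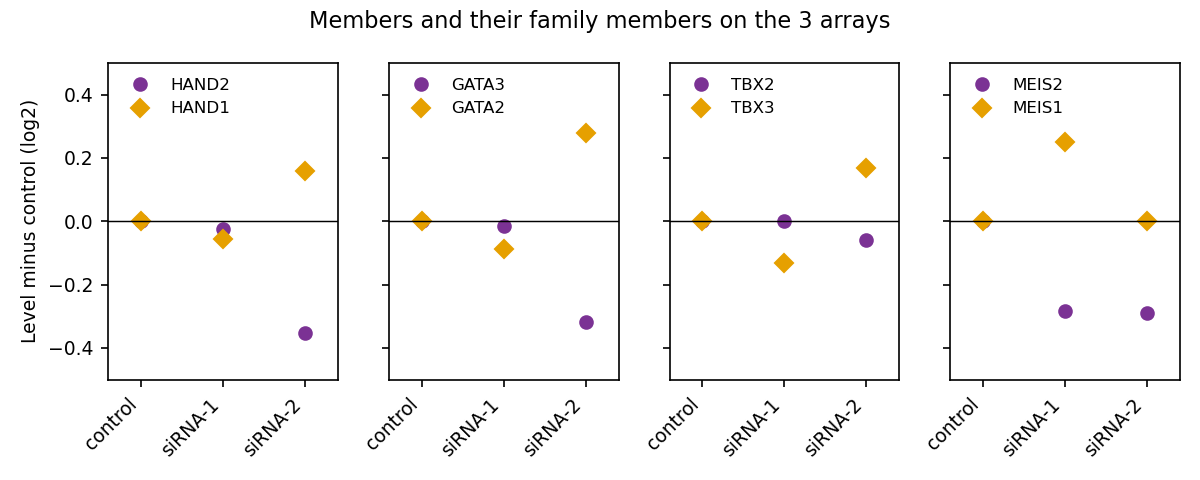
Log2 difference from the control array (vertical axis) on each array for HAND2, GATA3, TBX2 and MEIS2 (circles) and their relatives HAND1, GATA2, TBX3 and MEIS1 (diamonds). With siRNA-2, HAND2 and GATA3 lie at -0.35 and -0.32, and HAND1 and GATA2 at 0.16 and 0.28.

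Among 37 other transcription factors of adrenergic cells and their partners, 32 were measured and 26 kept. None (0) reached 1.5-fold on the same side of control with the pair of siRNAs. By any amount 12 of the 26 were higher with both and 2 lower with both, beside 18% and 22.3% of kept genes, and the median difference was 0.15 with siRNA-1 and 0.11 with siRNA-2. With siRNA-1 alone DLX5 and EBF3 were past 1.5-fold higher, by 0.88 and 0.63, beside 2.24% of kept genes. ZNF536 was past it on the low side, at -0.60, beside 4.6%. INSM2, a zinc finger factor, had the largest shared difference and was lower, at -0.54 and -0.49. SIX3, a homeodomain factor, was higher by 0.49 and 0.33. POU4F1, a POU factor of sensory neurons, was higher by 0.27 and 0.38, and DACH1 by 0.26 and 0.51. DLX5, ZNF536 and DACH1 lay below the highest background row, 9.26, on all 3 arrays, as did SIX3 on the control and siRNA-2 arrays. The size of their differences is uncertain. Of the partners of the 8 genes, PBX3, a TALE homeodomain protein that pairs with MEIS factors, was higher by 0.24 and 0.28. LDB1, the adaptor that LIM homeodomain proteins such as ISL1 bind, differed by 0.14 and -0.01. TCF3 was tied on all 3 arrays, and TCF12 differed by 0.23 and 0.09. Both encode E proteins, with which HAND2 dimerises.

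The genes with the pattern most like that of MEIS2 and ISL1, by distance between the differences from control over 3 arrays, were common rather than few. For MEIS2 they were CEP41, CEP97 and APEX2, each within 0.01 on the log2 scale, and 175 other kept genes (2.35%) lay within 0.1 in both differences. For ISL1 they were ACBD3, CTU2 and CX3CL1, within 0.02, and 79 kept genes (1.06%) lay within 0.1. For DBH, taken up after its values were seen, the nearest were TSPAN18, SERAC1 and BAMBI at distances of 0.09 to 0.11, and 2 kept genes (0.0269%) lay within 0.1.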

How the data were processed

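The authors deposited 1 value table of 3 arrays, with 1 array per group. The deposited values run from 1.34 to 14.87 and were taken to be log2 levels, since no scale is stated. The authors made these values with steps that are not described. Per the submitters' processing notes MAS5 was used, in a role not named. Background correction, normalization, probe summary and genome build are not given in the sources used here. Array medians over all probe sets were 5.79 to 5.81.

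Of 53617 probe sets, 16098 had 1 gene symbol in the platform annotation, 0 had several and 37519 had none. Names were updated through RefSeq (GRCh38.p14). The probe set with the highest mean stood for a gene, and 7442 genes at or above the median mean were kept. Log2 differences were taken between arrays with Python 3.11.15 and pandas 2.3.3, and a gene was counted at 1.5-fold. The counting was tested on simulated data. With 1 array per group no precision can be stated. Tied values, the background range, the higher hybridisation controls on the siRNA-1 array and the undescribed processing limit the values as well.

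The members and lists were chosen with earlier results of these data known. Named are all members, WDR5, their relatives, genes of catecholamine synthesis, up to 4 genes of each list by shared difference, and the 3 genes most like MEIS2 and ISL1. Other named genes were chosen after their values were seen: CYB561 and CHGA, CHGB and SCG2 of the granule list, ALDH2, PBX3, LDB1, TCF3, TCF12, DLX5, EBF3, ZNF536, and those of the closing section. A planned comparison of protein sequences was not run. Alternatives were quantile normalization, centring on the median or the 75th percentile, the mean of probe sets and no filter. Others were a 75th percentile filter, a lower fold limit (0.32 on the log2 scale) and a 2-fold limit. The median and percentile for centring were taken over probe sets with a gene symbol.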

Additional observations from a re-analysis of the deposited data

Results flagged for a closer look

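In 5 of the 60 kept genes of the lists the siRNAs lay on opposite sides of control by at least 0.32 each on the log2 scale. Over all 7442 kept genes this was so for 0.954% with siRNA-1 on the low side and for 0.672% with siRNA-1 on the high side. With 1 array per siRNA the difference between the siRNAs was not tested. DBH (log2 difference of siRNA-1 from siRNA-2 of -1.32), CHGA (-1.20), DRD2, a dopamine receptor gene (-1.13), and CYB561 (-1.02) were lower than control with siRNA-1 and higher with siRNA-2. SNAI1, a repressor of epithelial genes on the mesenchymal list, went the other way, with a difference of 1.15. DRD2 and SNAI1 lay below the highest background row, 9.26, on all 3 arrays, so the size of their differences is uncertain.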

How the results depend on the processing

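No paired analysis was possible because each group held 1 array, and no replicate could be left out. The count of the 8 genes at the limit with both siRNAs stayed at 0 under every alternative run. With a lower limit of 0.32 on the log2 scale 3 genes passed with siRNA-2 (ISL1, HAND2 and DBH) and 2 between the siRNAs (HAND2 and DBH). With siRNA-2, 18% of kept genes were at least as far from control as GATA3, just short of that limit at -0.3196. Between the siRNAs 23.4% were at least as far apart as HAND2, just past it at 0.329. With a 2-fold limit 0 passed with siRNA-1, and the share of kept genes past that limit was not counted. Quantile normalization left 0 genes tied on all 3 arrays, in place of TH. With the mean of probe sets ISL1 differed from control by 0.13 and 0.21. The 75th percentile filter dropped TBX2 and TH. The list medians below moved by over 0.1 where fewer or more genes entered. With no filter, 1 gene of the other lists passed with both siRNAs (PECAM1, at a level below the filter). The medians then were 0.013 for granule genes with siRNA-2 and 0 between the siRNAs. They were 0 for receptors with siRNA-1, with siRNA-2 and between the siRNAs (-0.53, 0.13 and -0.66 with the filter). They were 0 for mesenchymal factors with siRNA-1 and between the siRNAs (0.23 and 0.40 with the filter, and -0.05 with siRNA-2). With the mean of probe sets a 4th receptor gene was kept, and the receptor medians were -0.31 with siRNA-1 and -0.34 between the siRNAs. With the 75th percentile filter 3 mesenchymal factors were left, with medians of 0.060 with siRNA-1, 0.058 with siRNA-2 and 0.14 between them. The other 124 counts and medians and 259 single-gene differences stayed within 0.1 on the log2 scale (differences and medians) or within 1.5 times (counts). Signs turned under centring or quantile normalization for HAND2 and GATA3 with siRNA-1, TBX2 with siRNA-2, and MEIS2 and TH between the siRNAs.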

Other observations

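Of 14 adrenergic and dopamine receptor genes 13 were measured and 3 kept, with a median difference between the siRNAs of -0.66 that was 0 without the filter on low levels. DRD2 read 8.24 with the control siRNA, 7.64 with siRNA-1 and 8.76 with siRNA-2, and ADRA2C, an alpha-2 adrenergic receptor, read 9.72, 9.19 and 9.85. Both were lowest with siRNA-1, like DBH, while ADRB3 was tied on all 3 arrays. DRD2 on every array and ADRA2C with siRNA-1 did not exceed the highest background row, which leaves the size of these differences uncertain.

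Of 23 mesenchymal factors 21 were measured and 6 kept, and none (0) reached 1.5-fold on the same side of control with the pair of siRNAs. SNAI2, a zinc finger factor of the neural crest, read 12.16 with the control siRNA, 12.88 with siRNA-1 and 12.22 with siRNA-2. The brightest of the VIM probe sets, for the filament protein vimentin, read 8.21, 8.96 and 7.93, and SNAI1 read 8.05, 8.46 and 7.31. These 3 genes were highest with siRNA-1, the array on which DBH, CHGA and CYB561 were lowest. Of the 26 other kept adrenergic factors, 17 were also above control with siRNA-1, 6 below and 3 tied. Over all kept genes 2836 were above, 2845 below and 1761 tied. A shift between the states was not tested. Between the siRNAs 4 of the 6 kept mesenchymal factors were higher with siRNA-1, 1 was lower (FOSL2, at -0.30) and 1 tied. Of all kept genes 43.1% were higher and 35.5% lower. Past 1.5-fold between the siRNAs were 3 of them, beside 8.86% of kept genes in either direction. Their median between the siRNAs was 0.40, and 0 without the filter. VIM, SNAI1, FOSL2, SOX9 and TWIST1 lay within the background range on all 3 arrays, so the size of their differences is uncertain. Levels of the other VIM probe sets are not given here. SOX9 differed from control by 0.06 with each siRNA, and TWIST1 by -0.01 and -0.15.

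Of 10 adrenergic markers 8 were measured, and 6 of them stood above the highest background row on all 3 arrays. Of 8 Schwann cell markers 5 were measured, at levels from 5.52 to 6.96. Their log2 levels added up to 31.4 with the control siRNA, 31.6 with siRNA-1 and 31.4 with siRNA-2. Such a sum of log2 levels over genes is not an amount of RNA. SOX10 and S100B were tied on all 3 arrays. Of 12 leukocyte, endothelial and fibroblast markers 4 were measured, with sums of log2 levels of 22.7, 23.7 and 23.6. PECAM1, an endothelial marker below the filter level, was above control by 0.59 and 0.83. CD68, a macrophage marker, was 0.38 above control with siRNA-1 and 0.08 with siRNA-2. The Schwann cell markers reached at most 6.96 and the leukocyte, endothelial and fibroblast markers at most 8.14, all below the highest background row, 9.26. Their levels alone do not tell that they were expressed. The part of these markers in the differences above was not tested.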
